A study of Rattus norvegicus with 16 samples.

Results

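The genes described here are 36 activity-induced immediate early genes, measured in poly(A) RNA sequencing of rat central amygdala. They were chosen by name, with earlier results of these data known, from the textbook set of genes that neurons switch on early after firing. The 36 span the Fos and Jun genes, the EGR and NR4A transcription factors and other rapidly induced regulators. Stress and growth-arrest genes, the phosphatases that end MAP kinase signalling, and synaptic or secreted effectors make up the rest. All 36 were found among the 33294 genes of the count table, and 34 passed the filter on low counts that left 17856 genes to test. The 2 that did not pass were Atf3, at 0.125 to 0.719 CPM (counts scaled to the size of each library), and Bdnf, at 0 in 4 of 16 libraries and at most 1.89 CPM.

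The rats were adult offspring exposed around birth to either fentanyl, a potent synthetic opioid, or saline. Every animal, control or exposed, had later been through sessions that the study calls IVSA, an abbreviation that its labels do not spell out, and tissue was taken 1 day after the last session. Each exposure was represented by 6 males and 2 females, 16 libraries from as many offspring. The sources used here give no strain, age, dose, litter or dissection detail, so the p-values measure the spread between these animals, some of which may share a litter.

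Immediate early genes need no new protein to be transcribed. Calcium entry and cAMP activate kinases that phosphorylate CREB and the SRF-bound Elk factors already sitting on their promoters, and the mRNAs usually rise and decay within an hour or so. Their protein products then drive a second wave of genes (Fos, Egr1, Npas4) or act at the synapse itself (Arc, Homer1). In the amygdala they are widely used as markers of neurons engaged by drugs, stress or cues.

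Library totals ran from 12879701 to 22426428 counts, and no pair of libraries was alike enough to be repeats of the same library. The mitochondrial share was 8.44% to 11.8% in 14 libraries, 12.8% in saline female replicate 1 and 17.7% in fentanyl male replicate 2. The neuropeptide and kinase genes that mark the central amygdala were present throughout, with Prkcd at 11.2 to 33.3 CPM, Sst at 41.4 to 206 CPM and Nts at 3.06 to 29.4 CPM. Crh was detected in all 16 libraries but was low, at 0.521 to 17.2 CPM (median 3.58). Drd1, Ppp1r1b and Adora2a, markers of striatal medium spiny neurons, had higher medians than these genes and varied widely. Drd1 ran from 92.7 to 344 CPM (median 231) and Ppp1r1b from 592 to 2850 CPM (median 1320). Adora2a, the adenosine receptor of indirect-pathway neurons, ran from 84 to 613 CPM (median 258). The medians of Prkcd, Sst and Nts were 15.1, 90.1 and 6 CPM. The full marker lists overlapped in level. Penk, on the central amygdala list, had a median of 1090 CPM, and Rarb, on the striatal list, had a mean of 42.7 CPM. The saline males also fell into 2 sets of library numbers, 1 and 2 (replicates 1 and 2) and 9 to 12 (replicates 3 to 6). The 2 saline females carry numbers 10 and 11, while the fentanyl rats carry 1 to 6 (males) and 1 and 2 (females). What those numbers stand for is not stated, and several results are given with and without saline males 1 and 2. In females, exposure and library-number range cannot be told apart. The same holds for every comparison of exposures made without saline males 1 and 2.

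Within the AP-1 family, whose Fos and Jun proteins pair to bind DNA, Fos itself was a low-level transcript in every group. Fos stood at 3.97 to 9.63 CPM in the 6 fentanyl males (median 4.79) and at 3.65 to 13.3 CPM in the 6 saline males (median 8.58). In females it was 7.19 and 4.29 CPM after fentanyl and 4.87 and 4.9 CPM after saline. The 2 highest saline males, replicates 2 and 3, were above every other library, but the lowest saline male was below every fentanyl male, so the groups overlapped. Junb, which restrains Jun activity, ran from 29.9 to 43.7 CPM in fentanyl males (median 33.3) and from 21.4 to 69.5 CPM in saline males (median 47.1). Its female values were 40.1 and 43.5 CPM after fentanyl against 21.0 and 26.5 CPM after saline. The saline males thus lay on both sides of the narrow fentanyl range, and the fentanyl females lay above the saline females.

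The EGR zinc fingers, which bind GC-rich sites in the promoters of neuronal genes, showed the same wide spread among saline males. Egr1 was 18.3 to 72.1 CPM in fentanyl males (median 46.5) and 20.6 to 90.4 CPM in saline males (median 47.2). It was 56.8 and 57.8 CPM in fentanyl females and 23.7 and 35.4 CPM in saline females. Egr2 was 3.18 to 8.08 CPM in fentanyl males (median 3.67) and 1.47 to 11.2 CPM in saline males (median 5.40). For both genes saline male replicates 1 and 2 were at the top of their group and replicates 5 and 6 at the bottom. Egr2 in females was 4.68 and 4.18 CPM after fentanyl and 1.56 and 3.64 CPM after saline.

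Arc and Npas4 are regarded as the most neuron-specific genes of the set. Arc, a capsid-like protein that drives AMPA receptor endocytosis, was 34.2 to 84.0 CPM in fentanyl males (median 47.1) and 19.7 to 117 CPM in saline males (median 45.4). In females it was 52.5 and 57.9 CPM after fentanyl and 29.0 and 41.4 CPM after saline. Npas4, a transcription factor induced by calcium influx and few other stimuli, was 5.2 to 18.7 CPM in fentanyl males (median 7.13) and 1.80 to 36.8 CPM in saline males (median 8.35). Its female values were 17.0 and 7.88 CPM after fentanyl and 9.18 and 4.39 CPM after saline. Npas4 was the most variable member, with a within-group SD of 1.14 on the log2 scale, and Jund, a largely constitutive Jun partner, was the least variable at 0.16.

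Nr4a1, an orphan nuclear receptor, was 21.3 to 47.8 CPM in fentanyl males (median 34.1) and 21.1 to 84.2 CPM in saline males (median 42.1). It was 28.3 and 51.7 CPM in fentanyl females and 19.4 and 27.4 CPM in saline females. Btg2, an antiproliferative co-regulator, was 4.19 to 8.55 CPM in fentanyl males (median 5.28) and 4.56 to 9.10 CPM in saline males (median 5.92). In females it was 6.69 and 8.80 CPM after fentanyl and 4.81 and 7.72 CPM after saline. Btg2 overlapped between exposures in both sexes. Across the 34 tested members the median within-group SD was 0.48 on the log2 scale, against 0.26 over genes of 1 CPM or more.

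The remaining members were detected in all 16 libraries and their exposure groups overlapped. The phosphatases that switch off MAP kinases ran from 15.8 to 43.2 CPM for Dusp1, 11 to 25 CPM for Dusp4, 1.52 to 6.31 CPM for Dusp5 and 9.24 to 19.1 CPM for Dusp6. The growth-arrest genes ran from 8.43 to 20.3 CPM for Gadd45b and from 5.46 to 13.1 CPM for Gadd45g. Klf4 and Klf10, zinc finger factors also found in glia and vessels, were at 3.51 to 15.9 CPM and 5.58 to 13 CPM, and Ier2 at 2.2 to 6.11 CPM. Among secreted or enzymatic effectors, Nptx2, a pentraxin that clusters AMPA receptors, ran from 9.42 to 36.3 CPM and Ptgs2 from 1.37 to 6.3 CPM. Maff, a small Maf factor, was tested at 0.343 to 2.55 CPM.

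**Figure D1:**
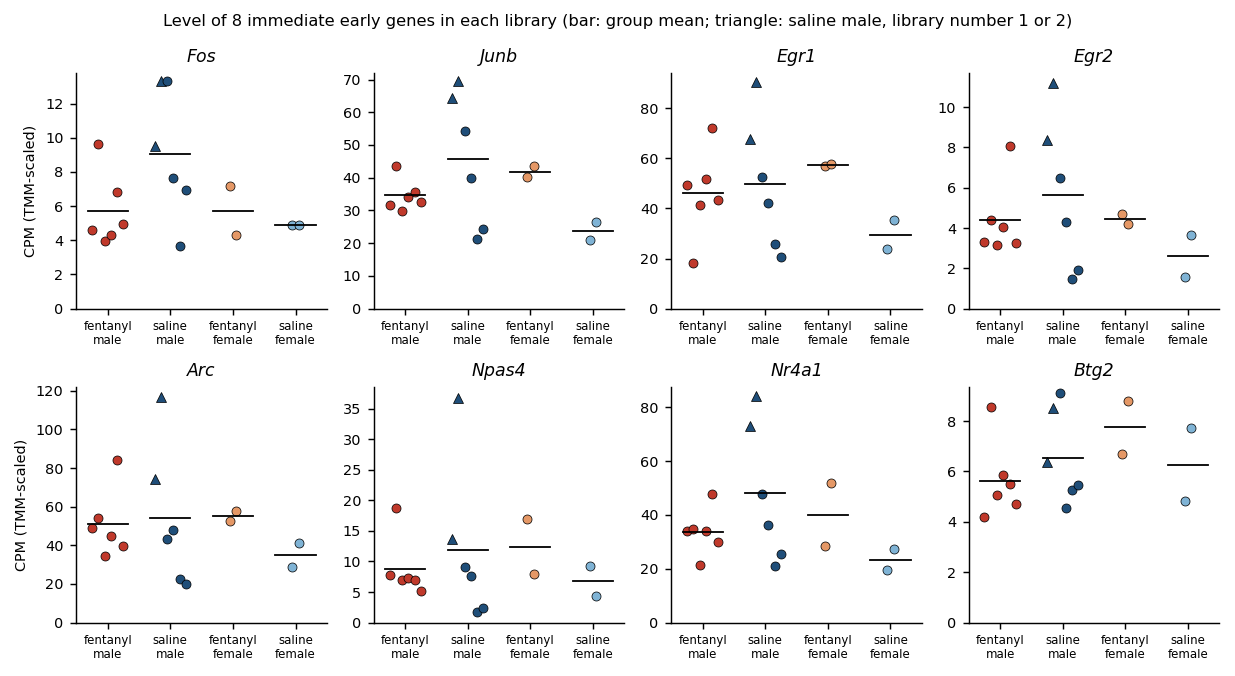
Each point is 1 library and the y axis is its level in CPM, from 0, for 8 immediate early genes in the 4 groups; bars are group means and triangles mark saline males with library numbers 1 and 2. The saline males span the widest range for Junb (21.4 to 69.5 CPM) and Arc (19.7 to 117 CPM), with both triangles above the other saline males in those panels.

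The 8 fentanyl and 8 saline rats were first compared with sex in the model. None of the 34 tested immediate early genes passed an adjusted p of 0.05 in edgeR's quasi-likelihood test, where 0.0784% of all genes did. DESeq2 also called none (0.488% of all genes), whereas limma voom with sample quality weights called 3 higher and 1 lower (5.77% of all genes). Those 4 were Egr3, at a log2 fold change of 0.66, Ptgs2, the inducible cyclooxygenase, at 0.79, Homer1, at 0.45, and Dusp1, a nuclear MAP kinase phosphatase, at -0.40. Log2 fold changes in edgeR were above 0 for 16 members and below 0 for 18, with a median of -0.01 over the members and -0.01 over all genes tested. That balance turned on single libraries: without saline male replicate 2 it was 23 above and 11 below (median 0.10), and without fentanyl female replicate 2 it was 12 and 22 (median -0.09).

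The members with the smallest p were not the classical markers. In edgeR, 4 members had an unadjusted p below 0.05 (7.27% of all genes did), and none had exposure groups that did not overlap (0.101% of all genes). Sik1, a salt-inducible kinase that feeds back on CREB co-activators, was 5.46 to 8.96 CPM after fentanyl (median 7.92, n = 8) and 6.86 to 13.4 CPM after saline (median 10.02, n = 8). Its log2 fold change was -0.42 ± 0.14 (SE), with a Benjamini-Hochberg adjusted p of 0.527 in edgeR. The 5 highest Sik1 values were all in saline libraries, 4 males and 1 female. Ier3, a stress-response survival gene, was 1.18 to 2.29 CPM after fentanyl (median 1.65) and 1.27 to 4.20 CPM after saline (median 2.59), a log2 fold change of -0.53 ± 0.21 (edgeR adjusted p = 0.623).

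Jun, the AP-1 partner also induced by cell stress, was 17.5 to 38.9 CPM after fentanyl (median 36.3) and 26.7 to 50.0 CPM after saline (median 43.5). Its log2 fold change was -0.33 ± 0.14, with an edgeR adjusted p of 0.66. Ier5 lay the other way, at 14.5 to 22.4 CPM after fentanyl (median 20.4) and 13.2 to 22.5 CPM after saline (median 15.9). The log2 fold change of Ier5 was 0.25 ± 0.11 (edgeR adjusted p = 0.669). All 4 genes overlapped between exposures. Fos had a log2 fold change of -0.45 ± 0.27 (edgeR adjusted p = 0.759), and the other classical markers were closer to 0: Junb -0.10 ± 0.24, Egr1 0.15 ± 0.31, Egr2 -0.10 ± 0.38, Arc 0.10 ± 0.31, Npas4 -0.12 ± 0.51, Nr4a1 -0.20 ± 0.30 and Btg2 -0.09 ± 0.19.

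By role, the log2 fold changes were below 0 for 6 of 7 AP-1 genes and for all 3 NR4A receptors, and above 0 for 3 of 4 EGR genes and for all 6 tested synaptic and secreted effectors. These are counts of signs, and in edgeR no gene of any role passed the adjusted threshold. The NR4A values were -0.59 ± 0.36 for Nr4a2 and -0.67 ± 0.41 for Nr4a3. Among the effectors, Inhba, the activin A subunit, had the largest value at 0.40 ± 0.19. Some marker lists had near-uniform signs in the same comparison and others were split, with none of their genes past the adjusted threshold. The split ones included central amygdala genes (8 above 0 and 6 below), cortical and basolateral genes (5 and 5) and endothelial and mural genes (9 and 6). All 20 tested striatal genes lay above 0 (median log2 fold change 0.49), and all 13 microglial genes, 14 of 15 myelin genes and 13 of 14 astrocyte genes lay below 0. With the striatal and myelin means as covariates the values were -0.015 for Inhba, -0.10 for Homer1 and -0.32 for Arc. The other effectors stayed above 0, at 0.29 for Ptgs2, 0.06 for Nptx2 and 0.14 for Vgf.

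**Figure D2:**
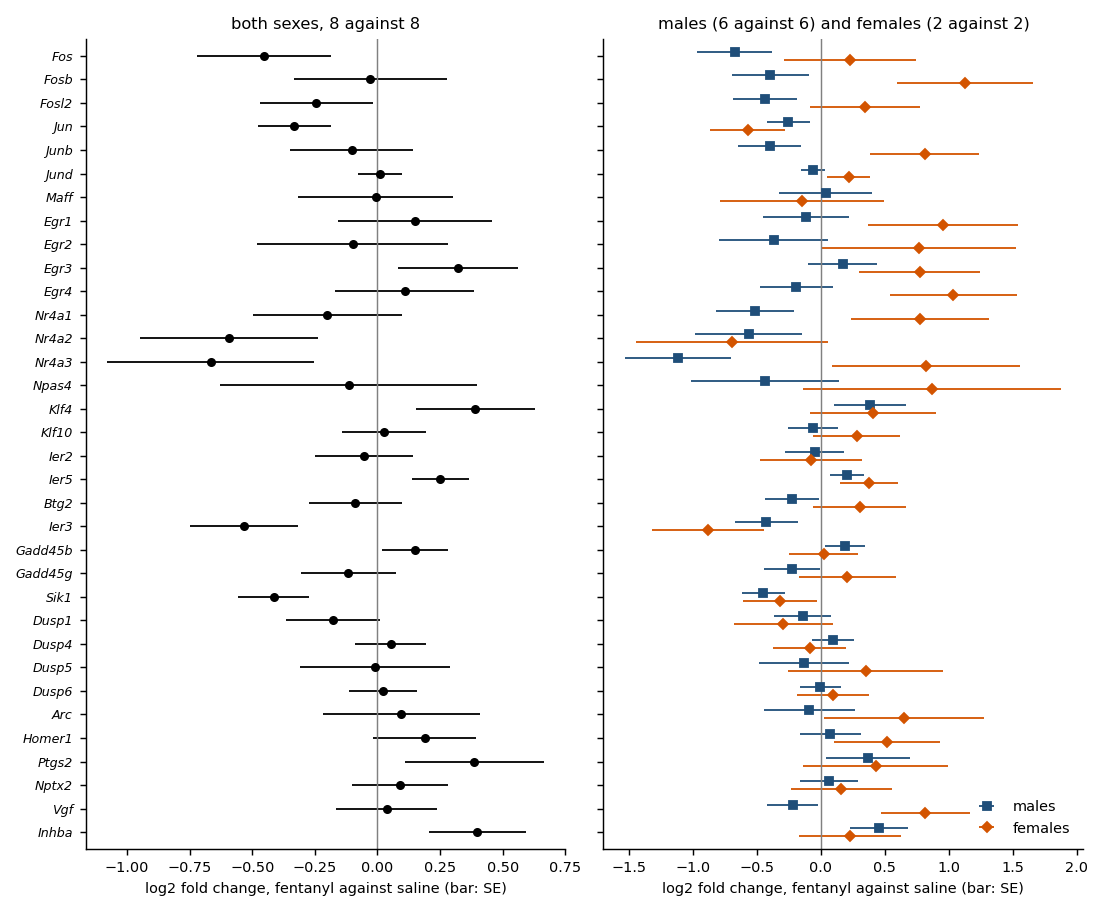
The x axes give the log2 fold change of fentanyl against saline with its SE for the 34 tested genes, in both sexes together (left; 8 against 8) and in males and females apart (right; 6 against 6 and 2 against 2). Most bars on the left cross or lie close to 0, and on the right many female points lie to the right of the male ones, as for Fosb at 1.13 and -0.40.

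In males alone, 24 of 34 members had a log2 fold change below 0 and 10 above, with a median of -0.14 against -0.005 over all genes. Without saline male replicate 2 the direction turned, to 18 above and 16 below with a median of 0.05. No member passed the adjusted threshold in edgeR (0.0392% of all genes did), in DESeq2 (0.241%) or in limma voom (0.487%). At an unadjusted p below 0.05 there were 3 members (4.13% of all genes), and no member had male groups that did not overlap (0.375% of all genes). Nr4a3, an orphan nuclear receptor induced with Nr4a1, was 1.65 to 7.48 CPM in fentanyl males (median 6.47) and 5.17 to 27.2 CPM in saline males (median 11.2), a log2 fold change of -1.11 ± 0.41. Sik1 stood at -0.45 ± 0.17 and Fos at -0.67 ± 0.29, each with an edgeR adjusted p of 0.9998. The highest Nr4a3 value, 27.2 CPM, was in saline male replicate 1.

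In females, with 2 rats in each group, 26 members had a log2 fold change above 0 and 8 below, with a median of 0.33 against -0.006 over all genes. This contrast also sets library numbers 1 and 2 against 10 and 11. No member passed the adjusted threshold in edgeR (0% of all genes) or limma voom (0%), nor in DESeq2 (0.112%). At an unadjusted p below 0.05 there were 2 members (14.3% of all genes). Vgf, a secreted neuropeptide precursor, was 65.3 and 114 CPM after fentanyl and 52.9 and 48.5 CPM after saline, a log2 fold change of 0.82 ± 0.35 (edgeR adjusted p = 0.338). Fosb, whose truncated product accumulates with repeated drug exposure, was 10.3 and 10.1 CPM after fentanyl and 4.81 and 4.52 CPM after saline, a log2 fold change of 1.13 ± 0.53 (edgeR adjusted p = 0.349). Counts per gene do not show that product apart. The fentanyl females were the higher pair for both Vgf and Fosb. Female groups did not overlap for 15 of 34 members, against 48.8% of all genes, so that count was near the background.

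The female rats also differed in cell-type markers. All 15 myelin and oligodendrocyte genes had a female log2 fold change below 0, with summed levels of 8505 and 19890 CPM after fentanyl against 26620 and 27010 CPM after saline. All 20 tested striatal genes lay above 0, with summed levels of 10190 and 14220 CPM against 6233 and 7145 CPM. No gene of either list passed the adjusted threshold in edgeR, and the part of these differences in the values of Vgf and Fosb was not tested. In bulk tissue, fewer cells of a type and less RNA per cell cannot be told apart.

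The difference between the sexes in the fentanyl effect was tested directly as an interaction. No member passed the adjusted threshold in edgeR (0% of all genes), limma voom (0%) or DESeq2 (0.0224%), while 5 had an unadjusted p below 0.05 (8.23% of all genes). These were Vgf, at a log2 difference of 1.04 ± 0.40 (females minus males), Fosb at 1.52 ± 0.61, Junb at 1.21 ± 0.49, Nr4a3 at 1.94 ± 0.85 and Egr4 at 1.23 ± 0.57, all with an edgeR adjusted p of 0.57. The median over the members was 0.39, and 0.21 without saline male replicate 2. For each of the 5 the male value was below 0 and the female value above 0, as for Junb at -0.40 ± 0.24 in males and 0.81 ± 0.43 in females. Egr4, a member of the same zinc finger family as Egr1, stood at -0.19 ± 0.28 and 1.04 ± 0.50. The saline females all carry numbers of the higher range and the saline males carry both, so this difference also follows the library numbers. Without saline males 1 and 2 the male values were 0.14 ± 0.25 for Fosb, -0.01 ± 0.22 for Junb and 0.32 ± 0.23 for Egr4.

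Between females and males with exposure in the model, no member passed in edgeR (0.056% of all genes) or DESeq2 (0.0616%), and limma voom called 1, Dusp4, lower in females (0.084% of all genes). Dusp4, a nuclear MAP kinase phosphatase, had the only unadjusted p below 0.05 in edgeR (2.52% of all genes), with a log2 fold change of -0.45 ± 0.17 (adjusted p = 0.9999). It was 12.6 to 15.7 CPM in the 4 females, and 11 to 25.0 CPM in the 12 males. The male minimum of 11 CPM was in fentanyl male replicate 2, where the next fentanyl male was at 21.3 CPM.

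More members differed inside the saline males than between exposures. In the 4 rats with library numbers 9 to 12 against the 2 with numbers 1 and 2, 11 of 34 members were lower (8.27% of all genes) and 2 were higher (9.66% of all genes) at an edgeR adjusted p of 0.05. The median log2 fold change was -0.53 over the members and 0.01 over all genes. The groups did not overlap for 21 of 34 members, against 44.8% of all genes. DESeq2 called 13 lower and 2 higher (21.4% of all genes in either direction) and limma voom 17 and 4 (32.1%).

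Among synaptic effectors, Homer1, a postsynaptic scaffold whose short form is induced by activity, was 170 and 197 CPM in numbers 1 and 2 and 90.9, 97.8, 80.7 and 57.4 CPM in numbers 9 to 12. Both of the first pair exceeded all of the other 4, and the log2 fold change was -1.17 ± 0.18 (edgeR adjusted p = 0.00164). Counts per gene do not separate the short form of Homer1 from the others. Arc was 74.5 and 117 CPM against 43.0, 47.8, 22.6 and 19.7 CPM, a log2 fold change of -1.53 ± 0.35 (edgeR adjusted p = 0.00992). Inhba fell with them, at -0.86 ± 0.26 (edgeR adjusted p = 0.0331).

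Among transcription factors, Egr3 was 112 and 142 CPM in numbers 1 and 2 and 70.7, 69.4, 50.5 and 29.9 CPM in numbers 9 to 12, a log2 fold change of -1.21 ± 0.25 (edgeR adjusted p = 0.0068). Egr4 was 35.1 and 46.3 CPM against 25.4, 23.3, 11.3 and 11.2 CPM, a log2 fold change of -1.19 ± 0.28 (edgeR adjusted p = 0.0113). Of the EGR genes, Egr2 also passed (-1.45 ± 0.48), while Egr1, at -1.16 ± 0.39, had an edgeR adjusted p of 0.0502. The 3 AP-1 genes that were lower were Fosb (-1.23 ± 0.30), Fosl2 (-0.96 ± 0.26) and Junb (-0.94 ± 0.27), whereas Fos, at -0.53 ± 0.41, did not pass (edgeR adjusted p = 0.41). Nr4a1 (-1.26 ± 0.31) and Npas4 (-2.27 ± 0.60) completed the 11.

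The 2 members that were higher in numbers 9 to 12 were Nr4a2 and Ier3. Nr4a2, also a factor of dopamine and deep cortical or claustral neurons, was 1.30 and 0.753 CPM in numbers 1 and 2 and 7.80, 2.31, 3.27 and 4.83 CPM in numbers 9 to 12, a log2 fold change of 2.17 ± 0.48 (edgeR adjusted p = 0.00808). Ier3 was 1.58 and 1.27 CPM against 2.85, 2.56, 2.61 and 4.20 CPM, a log2 fold change of 1.10 ± 0.28 (edgeR adjusted p = 0.0157). Every library of numbers 9 to 12 was above both of numbers 1 and 2 for these genes.

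With 2 libraries in the smaller set, leaving out either leaves 1, which is then assumed to vary like the other groups, and fewer genes of any kind were called. Without saline male replicate 2, 1 member was lower and none higher (1.09% of all genes in either direction), while the log2 fold change of Homer1 was -1.06. Without replicate 1 there were 7 lower and 1 higher (6.92% of all genes), and without replicate 6, which leaves 3 in the other set, 6 lower and 2 higher (10.7%). Replicate 2 held the highest level of 14 of the 34 members, while it was highest for 7.58% of all genes.

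Cell-type markers moved with the library numbers as well. Over all genes tested, 8.27% were lower and 9.66% higher in numbers 9 to 12. Of 20 tested striatal genes, 18 were lower in numbers 9 to 12, with summed levels of 2980 to 5149 CPM against 8079 to 11260 CPM. Of 15 myelin genes, 13 were higher, at 12010 to 34780 CPM against 7692 to 10320 CPM. Astrocyte genes were higher in 6 of 14 and microglial genes in 4 of 13. Among cortical and basolateral genes 2 of 10 were higher, Neurod6 (2.89 ± 0.91) and Tbr1 (1.87 ± 0.62), and among thalamic and hypothalamic genes 2 of 6, Slc17a6 (2.95 ± 0.95) and Tcf7l2 (1.21 ± 0.17). Among central amygdala genes 2 of 14 were lower, Penk at -1.75 ± 0.33 and Pdyn at -1.16 ± 0.295, and 1 was higher, Cyp26b1 at 2.62 ± 0.64. The central amygdala list shares Tac1 with the striatal list and Prkcd with the thalamic and hypothalamic list, so the lists are not fully separate. The part of these markers in the immediate early gene differences was not tested within the 6 saline males.

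Genes upstream of the immediate early response differed between the number sets too, where 8.27% of all genes were lower and 9.66% higher. Of 20 kinases and phosphatases, 10 were lower and 1 higher in numbers 9 to 12. Camk2b, a subunit of the calcium-calmodulin kinase, stood at -1.03 ± 0.16, and Camk4, which phosphorylates CREB in the nucleus, at -1.16 ± 0.21. The 1 that was higher was Rps6ka1, a ribosomal S6 kinase, at 1.10 ± 0.19. Of 20 transcription factors and co-activators 4 were lower, among them Srf, the serum response factor, at -0.67 ± 0.14 and Crtc1, a CREB co-activator, at -0.74 ± 0.17. Among 40 other activity-induced genes, listed apart from the upstream genes, 5 were lower and 4 higher, near the shares over all genes. Examples were Plk2, a kinase of synaptic scaling, at -1.07 ± 0.19 and Lmna, a nuclear lamin gene, at 1.00 ± 0.18. Between exposures no gene of these 3 lists passed in edgeR, with the smallest p in each at Ppp3ca (log2 fold change 0.50 ± 0.21), Mef2c (0.48 ± 0.13) and Spry2 (0.29 ± 0.09).

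Since the saline males were so unlike, the fentanyl males were set against each number set in turn. The comparisons share the 6 fentanyl males. Against numbers 1 and 2, 8 members were lower and none higher in edgeR (5.47% of all genes), and the median was -0.41. The 8 were Fosb (-1.10 ± 0.13), Fosl2 (-1.01 ± 0.18), Junb (-0.95 ± 0.14), Egr4 (-0.88 ± 0.17), Nr4a1 (-1.23 ± 0.25), Nr4a3 (-1.87 ± 0.41), Sik1 (-0.79 ± 0.19) and Homer1 (-0.59 ± 0.14). Against numbers 9 to 12 no member passed (0.4% of all genes) and the median was 0.13. There Fosb was 0.14 ± 0.25, Junb -0.01 ± 0.22, Nr4a1 0.04 ± 0.25 and Homer1 0.58 ± 0.15.

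Fos, Nr4a3 and Sik1, the 3 members with an unadjusted p below 0.05 when these same males were pooled, were below 0 against both sets. That was not particular to them. Other members were below 0 in both as well, among them Btg2 (-0.41 and -0.12) and Vgf (-0.41 and -0.11). Fos was -1.005 ± 0.31 against numbers 1 and 2 and -0.47 ± 0.32 against numbers 9 to 12, Nr4a3 was -1.87 ± 0.41 and -0.52 ± 0.37, and Sik1 was -0.79 ± 0.19 and -0.24 ± 0.17. For Nr4a2 the sign turned, from 1.18 ± 0.35 to -0.98 ± 0.30, as it did for Ier3, from 0.40 ± 0.26 to -0.69 ± 0.20. In both sexes without saline males 1 and 2, 3 members were higher in the fentanyl libraries and 3 lower in edgeR (6.9% of all genes). Every saline library left then carries a number of 9 to 12 and no fentanyl library does. Exposure and number range cannot be told apart in that fit. The higher ones were Egr3 (0.72), Homer1 (0.56) and Inhba (0.63), and the lower ones Jun (-0.46), Nr4a2 (-0.91) and Ier3 (-0.74). With the mean levels of the striatal and myelin lists as covariates in all 16 libraries, no member passed (0.0616% of all genes). None had passed in all 16 without these covariates either (0.0784%), so that fit had no call to remove.

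**Figure D3:**
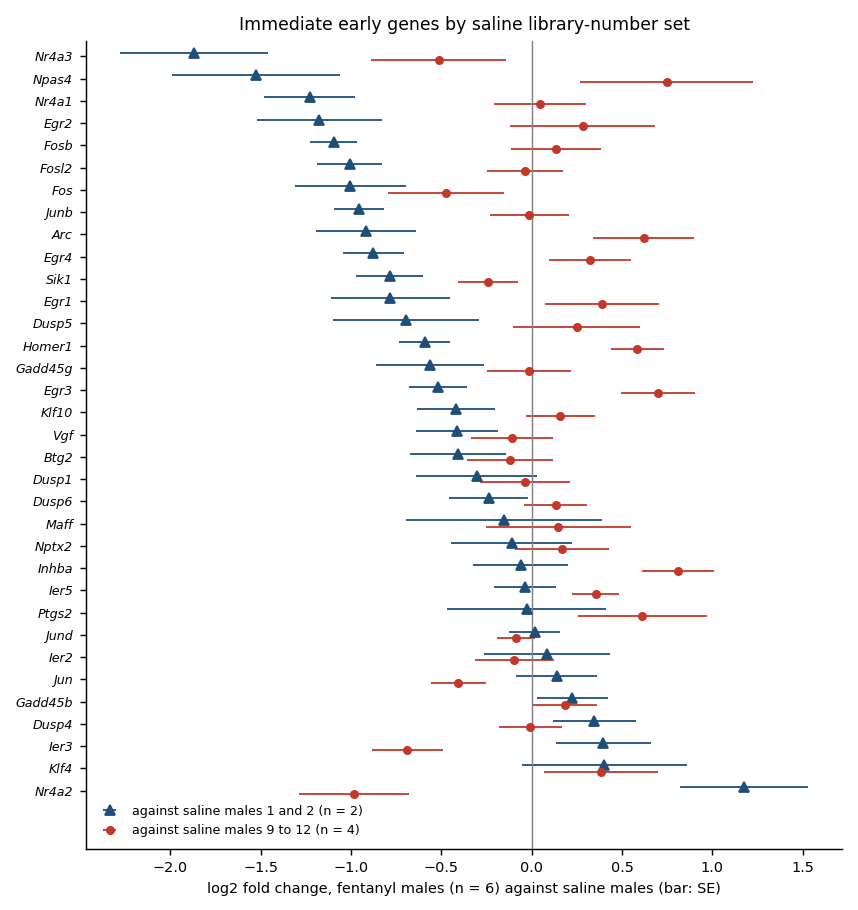
Log2 fold change, with its SE, of the 6 fentanyl males against the saline males of library numbers 1 and 2 (triangles, n = 2) and of numbers 9 to 12 (circles, n = 4), for the 34 tested genes. Nr4a1 is at -1.23 against the first set and 0.04 against the second, and Nr4a2 at 1.18 and -0.98.

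The immediate early genes did not vary as 1 block across the 16 libraries. Over the 561 pairs of tested members the median Pearson r of log2 CPM was 0.24, with 72 pairs over 0.7 and 91 below -0.3. These are descriptions over libraries that share group, depth and tissue make-up. The strongest pairs were Fosb with Egr4 (r = 0.966), Egr3 with Homer1 (0.964) and Fosb with Junb (0.933). The 4 EGR genes formed the tightest role, with a median r of 0.82 among themselves against 0.48 with other members. Nr4a1, Egr2 and Egr1 had the highest median r with the rest (0.58, 0.56 and 0.55), and Ier3, Nr4a2 and Jun the lowest (-0.41, -0.33 and -0.26). Without saline males 1 and 2 the median r of all pairs was 0.15 and 53 pairs were over 0.7, and for deviations from the 4 group means they were 0.26 and 98.

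**Figure D4:**
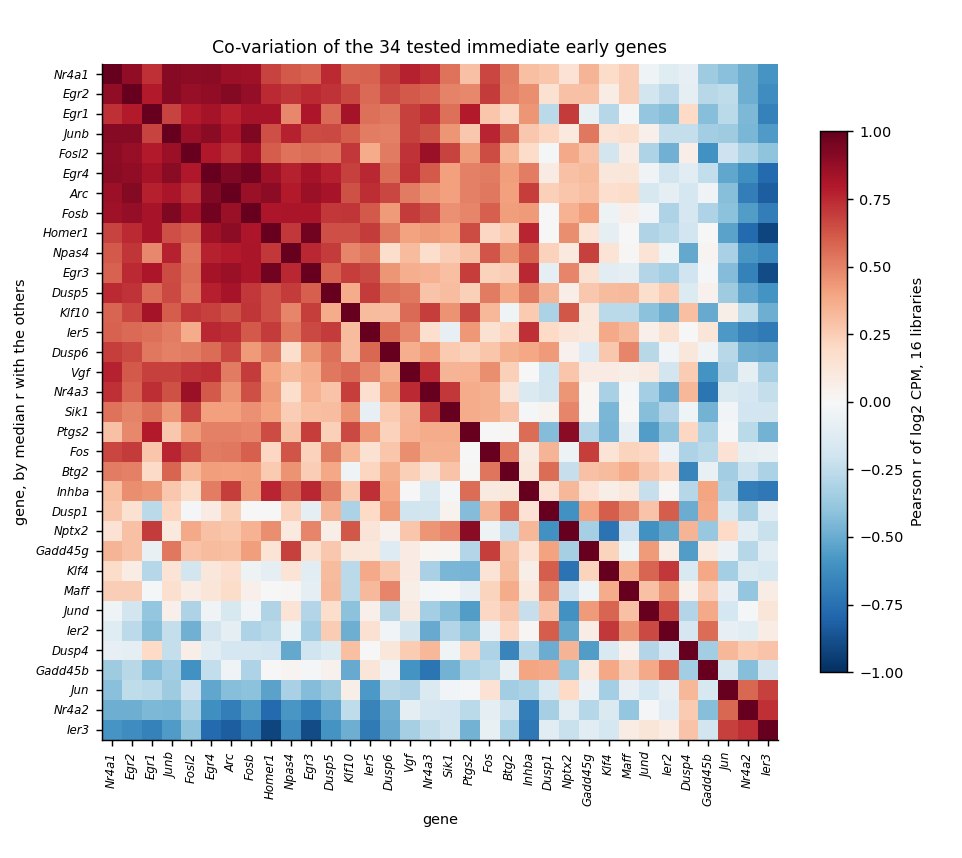
Pearson r of log2 CPM over 16 libraries for each pair of the 34 tested genes, coloured from -1 (blue) to 1 (red) and ordered by each gene's median r with the others. A red block runs from Nr4a1 to Egr3, and Ier3, Nr4a2 and Jun form the blue edge, as for Ier3 with Homer1 at r = -0.919.

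Fos was not at the centre of that block. Its r with the other 33 tested members had a median of 0.28 and was positive for 26. With Benjamini-Hochberg adjustment over the 33 relations, 6 had an adjusted permutation p below 0.05 for r and none for Spearman's rho, for which the smallest adjusted p was 0.0534. The closest was Junb (n = 16, r = 0.765, permutation p = 0.0005, adjusted 0.0165; rho = 0.697, permutation p = 0.00385). Next came Egr2 (r = 0.696), Gadd45g, a growth-arrest gene linked to DNA demethylation (0.691), Nr4a1 (0.665), Fosl2 (0.652) and Npas4 (0.629). Ranked by r with Fos among genes of 1 CPM or more, Junb was number 5 and Npas4 number 72. The share of all genes that would pass the adjusted threshold was not computed. Leaving out saline male replicates 2 and 3, the libraries farthest from the median of Fos, gave r = 0.623 for Junb, 0.556 for Egr2, 0.723 for Gadd45g, 0.5 for Nr4a1, 0.475 for Fosl2 and 0.538 for Npas4. Within the 8 fentanyl libraries Fosl2 had r = -0.219 and Nr4a1 0.149 with Fos, and within the 8 saline libraries 0.866 and 0.868. The same split was wide for Nr4a3 (-0.816 and 0.775) and Vgf (-0.411 and 0.969). Outside the set, 9 named genes of 1 CPM or more were among the 10 most like Fos, all at r of 0.730 to 0.801 over 16 libraries. The first were Jag2 (0.801), Coro1a (0.781) and Stx2 (0.773).

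The promoters of the 5 members with the highest r with Fos, and of the pair with the highest r of all, are shown so that their shared and unlike elements can be read. They are the 250 bases before each gene's start in RefSeq's GRCr8 annotation, written along the gene's strand, and Fosb and Egr4 were added after their values had been seen. Capitals mark the cAMP response element or its core TGACG on either strand, the CArG box bound by SRF, and the TATA box TATAAA.
Junb, chr19:40080876-40081125, plus strand: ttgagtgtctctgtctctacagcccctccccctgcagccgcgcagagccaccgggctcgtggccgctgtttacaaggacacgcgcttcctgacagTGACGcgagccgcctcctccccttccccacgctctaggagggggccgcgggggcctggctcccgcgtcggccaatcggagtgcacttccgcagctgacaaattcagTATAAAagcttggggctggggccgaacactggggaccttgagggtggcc
Egr2, chr20:21054442-21054691, minus strand: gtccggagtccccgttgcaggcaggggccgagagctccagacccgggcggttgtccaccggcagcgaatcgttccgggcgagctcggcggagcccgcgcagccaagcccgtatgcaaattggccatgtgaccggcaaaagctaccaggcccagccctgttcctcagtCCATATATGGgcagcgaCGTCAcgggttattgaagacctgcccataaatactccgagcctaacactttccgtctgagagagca
Gadd45g, chr17:13530352-13530601, minus strand: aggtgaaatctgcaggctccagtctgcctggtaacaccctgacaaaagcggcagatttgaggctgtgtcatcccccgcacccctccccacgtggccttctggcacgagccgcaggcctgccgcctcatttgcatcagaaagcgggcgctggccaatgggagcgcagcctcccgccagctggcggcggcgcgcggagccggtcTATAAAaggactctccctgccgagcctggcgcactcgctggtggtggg
Nr4a1, chr7:134259888-134260137, plus strand: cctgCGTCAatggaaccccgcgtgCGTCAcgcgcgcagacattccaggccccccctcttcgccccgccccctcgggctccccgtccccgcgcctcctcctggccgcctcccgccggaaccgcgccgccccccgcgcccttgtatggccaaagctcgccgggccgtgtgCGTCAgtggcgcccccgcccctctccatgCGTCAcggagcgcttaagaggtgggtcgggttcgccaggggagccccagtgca
Fosl2, chr6:30039270-30039519, minus strand: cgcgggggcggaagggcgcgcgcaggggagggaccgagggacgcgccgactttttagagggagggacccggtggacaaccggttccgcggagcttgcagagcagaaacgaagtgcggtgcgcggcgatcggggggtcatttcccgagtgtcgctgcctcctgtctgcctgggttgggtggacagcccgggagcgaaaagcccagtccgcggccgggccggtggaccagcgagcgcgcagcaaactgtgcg
Fosb, chr1:88089185-88089434, minus strand: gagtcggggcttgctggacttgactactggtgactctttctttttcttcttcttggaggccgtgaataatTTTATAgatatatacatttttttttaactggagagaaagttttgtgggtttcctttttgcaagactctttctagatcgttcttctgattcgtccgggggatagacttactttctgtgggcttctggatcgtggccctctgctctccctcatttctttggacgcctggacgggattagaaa
Egr4, chr4:119607818-119608067, minus strand: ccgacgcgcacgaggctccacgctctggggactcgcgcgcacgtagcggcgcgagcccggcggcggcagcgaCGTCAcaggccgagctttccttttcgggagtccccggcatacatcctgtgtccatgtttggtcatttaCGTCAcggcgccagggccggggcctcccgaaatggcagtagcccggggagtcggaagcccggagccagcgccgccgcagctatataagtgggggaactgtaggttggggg

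The Egr2 promoter holds a CArG box followed closely by a core, and the Nr4a1 promoter holds 4 cores. Egr4 holds 2 cores, while Fosb, its closest partner in level, holds none in this window and has 1 TATAAA on the opposite strand. Fosl2 holds none of the marked elements, nor does the window of Npas4, which is not shown. Entries were found for 27 of the 36 members. Fos was not among them, so its window is neither shown nor counted.

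Counted on both strands over those 27 windows, the core TGACG was present in 15 (55.6%) against 18.2% of 33469 promoters of the same length. The full cAMP response element TGACGTCA, which contains the core, was in 6 (22.2%; 1.59% of all promoters), those of Jund, Maff, Ier2, Btg2, Dusp1 and Vgf. The CArG box was in 3 (11.1%; 1.5%), those of Egr1, Egr2 and Dusp5. The EGR site GCGNGGGCG was in 9 (33.3%; 4.29%) and TATAAA in 8 (29.6%; 12.9%). Neither the AP-1 site TGANTCA (6.34% of all promoters) nor the NR4A element AAAGGTCA (1.24%) was found in these 27 windows. A match is only a match of letters.

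Several members covaried with markers of cell types. The log2 levels of 34 members were correlated over 16 libraries with the mean log2 level of 4 marker lists, 136 relations adjusted together. The permutations treated the 16 libraries as exchangeable across exposure, sex and library number. The share of all genes that would pass was not computed, so the counts below have no background and are not a trait of the members. With the striatal list 6 members had a positive and 3 a negative r at an adjusted permutation p below 0.05. Ier3 had r = -0.929 (permutation p = 1e-05, the smallest the resampling gives; adjusted 0.00136; rho = -0.953) and Homer1 r = 0.868 (permutation p = 3e-05; adjusted 0.00136; rho = 0.909). Nr4a2 (r = -0.853, rho = -0.850) and Jun (r = -0.715, rho = -0.791) were negative with Ier3, and Inhba (0.818), Egr3 (0.807), Ier5 (0.751), Arc (0.726) and Egr4 (0.641) were positive with Homer1. Without the 2 libraries farthest from the striatal median, saline male replicates 3 and 6, r was -0.929 for Ier3, 0.846 for Homer1, 0.808 for Egr3 and -0.7 for Nr4a2. Within exposures, Ier3 had r = -0.888 in the 8 fentanyl and -0.910 in the 8 saline libraries, and Homer1 0.787 and 0.894.

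With the myelin list 12 members had a negative and 2 a positive r at that threshold. Egr4 had r = -0.872 (permutation p = 4e-05, adjusted 0.00136; rho = -0.894), Fosb r = -0.859 (permutation p = 3e-05, adjusted 0.00136; rho = -0.874) and Nr4a1 r = -0.839 (permutation p = 7e-05, adjusted 0.00159; rho = -0.762). Leaving out the 2 farthest libraries, fentanyl female replicate 2 and saline male replicate 1, gave -0.876, -0.884 and -0.805. The relation differed in size between exposures for Junb, at r = -0.310 in fentanyl and -0.941 in saline libraries, and for Egr2, at -0.025 and -0.895; that difference was not tested. Jun, positive at r = 0.618, came to 0.109 without the 2 farthest libraries, so its relation rests on them. With the central amygdala list 8 members were positive, led by Vgf (r = 0.804, permutation p = 0.00026, adjusted 0.00321; rho = 0.794), and Gadd45b was negative (r = -0.637). No member passed with the cortical and basolateral list. Fos passed with none of the 4 lists.

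**Figure D5:**
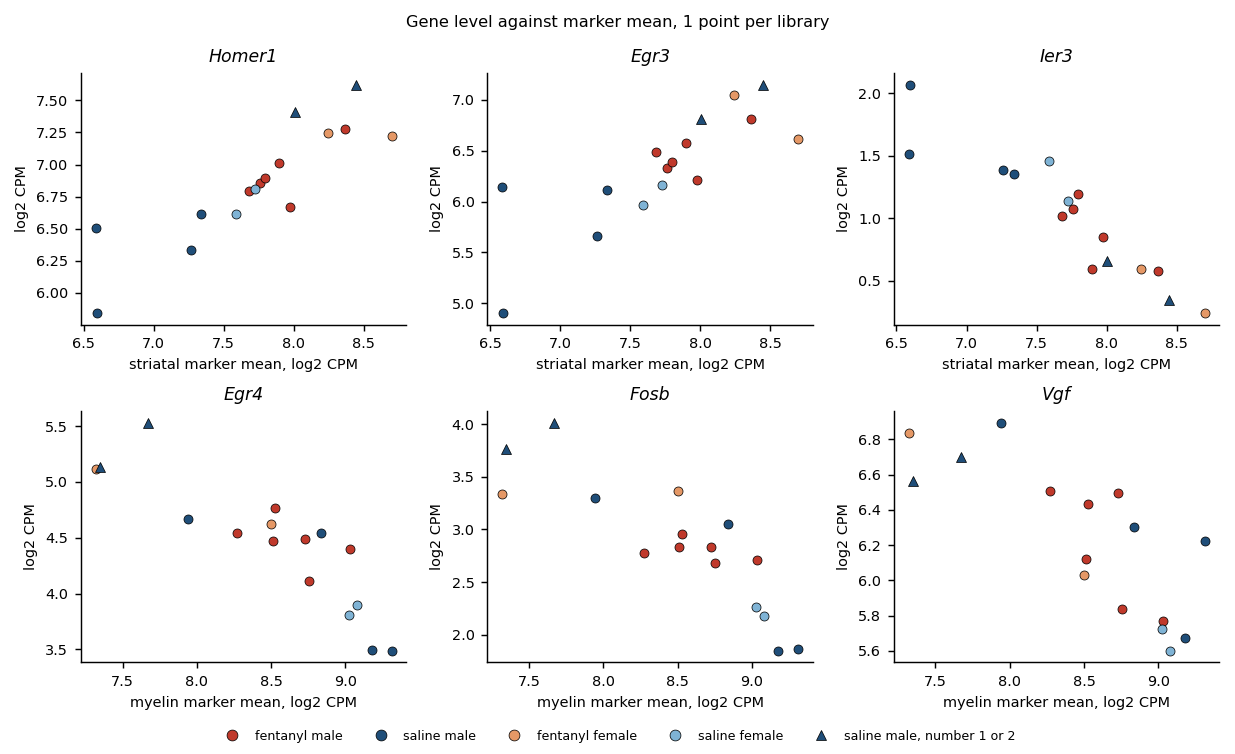
Each point is 1 library, with the mean log2 CPM of the striatal (top) or myelin (bottom) marker list on the x axis and a gene's log2 CPM on the y axis. Homer1 and Egr3 rise and Ier3 falls along the striatal axis (r = 0.868, 0.807 and -0.929), and Egr4, Fosb and Vgf fall along the myelin axis (r = -0.872, -0.859 and -0.789).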

How the data were processed

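The deposited table holds raw counts per gene for 16 libraries, made by the authors; the submitters' processing notes name Trimmomatic, STAR, HTSeq, DESeq2 and rn7, without versions or settings. Counts were used as deposited. Genes were kept by filterByExpr over the 4 groups (about 0.603 CPM), scaled by TMM and tested with edgeR 4.0.16 (quasi-likelihood, robust) in R 4.3.3, with p-values Benjamini-Hochberg adjusted over all 17856 genes kept. The comparison of both sexes had sex as a covariate, and contrasts within sex came from 1 fit of the 4 groups. DESeq2 1.42.0 and limma 3.58.1 (voom with sample quality weights) were alternatives. Log2 CPM used a prior count of 2, and correlations 100000 permutations, two-sided. The tests were tried on simulated counts with known changes. Promoters come from RefSeq (GRCr8); the authors' counts use another build, and coordinates were not mixed. 5345 of 33294 genes had no count.

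The members and all lists were chosen with earlier results of these data known. Values in every library were given for Fos, Junb, Egr1, Egr2, Arc, Npas4, Nr4a1 and Btg2, and for up to 5 members with the smallest unadjusted p below 0.05 in a comparison. Of other lists, genes past the threshold (up to 4) or with the smallest p were named.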

Additional observations from a re-analysis of the deposited data

Results flagged for a closer look

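Among the male groups of 6, 11 of 68 sets of values had 1 library far from the rest. Chance gives about 1 in 20 for independent, normally distributed values, but these sets share libraries. The share over all genes was not computed, so the count is not a trait of the members. Of the 11, 7 were fentanyl male replicate 2, the library with the highest mitochondrial share. It was the highest of its group for Npas4 (18.7 CPM, the next at 7.83), Klf4 (15.9, next 6.91), Dusp1 (43.2, next 22.5), Gadd45g (13.1, next 7.55) and Ier2 (6.11, next 4.16). It was the lowest for Dusp4 (11 CPM, next 21.3) and Nptx2, a secreted synaptic pentraxin (9.42, next 22.2). That library was also the highest of all 16 for 18.6% of all genes tested and the lowest for 18.2%.

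Fentanyl male replicate 5 was far above its group for Egr2 (8.08 CPM, next 4.39) and Dusp6, a cytoplasmic MAP kinase phosphatase (19.1, next 13.5). Fentanyl male replicate 1 was far above for Nr4a2 (3.71 CPM, next 2.44). Saline male replicate 2 was far above for Npas4 (36.8 CPM, next 13.7).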

How the results depend on the processing

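Scaling by RLE size factors, testing without a filter on low counts and leaving out the sex term left the counts of called members at 0 between exposures and between sexes; the median of all genes moved by less than 0.1 between scalings. Limma voom called 3 members higher and 1 lower between exposures, 1 lower in females than males, and 4 higher and 17 lower between saline library numbers. Without saline males 1 and 2, a fit in which exposure and library-number range cannot be told apart, there were 3 higher and 3 lower between exposures. Without saline males 9 to 12 there were 8 lower in males. Between the number sets the count of higher members ranged from 0 to 2 and that of lower members from 1 to 12 over fits that each omitted 1 library. The median r of Fos with other members was 0.28 and came to 0.54 in the 8 saline libraries. The cause of these changes was not tested.

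No reversed value below passed an adjusted threshold, and each concerns the log2 fold change of both sexes. Signs turned under limma voom for Fosb (0.36), Fosl2 (0.087), Junb (0.13), Jund (-0.076), Egr2 (0.42), Nr4a1 (0.029), Npas4 (0.64), Klf4 (-0.002), Btg2 (0.004) and Gadd45b (-0.004). Without saline males 1 and 2 they turned for Fosb (0.42), Fosl2 (0.073), Junb (0.22), Maff (0.062), Egr2 (0.42), Nr4a1 (0.25), Npas4 (0.79), Btg2 (0.007), Gadd45g (0.05), Dusp4 (-0.029) and Dusp5 (0.28). With striatal and myelin covariates they turned for Egr1 (-0.013), Egr4 (-0.069), Nr4a2 (0.64), Klf10 (-0.049), Gadd45b (-0.074), Dusp6 (-0.20), Arc (-0.32), Homer1 (-0.10) and Inhba (-0.015). Maff came to 0.00 with no filter and 0.018 with a cortical covariate. With 1 library left out, values crossed 0 for Fosb (-0.16 to 0.18), Junb (-0.23 to 0.037), Jund (-0.035 to 0.052), Maff (-0.11 to 0.14), Egr2 (-0.27 to 0.16), Egr4 (-0.008 to 0.32), Npas4 (-0.35 to 0.49), Klf10 (-0.047 to 0.13), Ier2 (-0.15 to 0.023), Btg2 (-0.18 to 0.015), Dusp5 (-0.19 to 0.22), Dusp6 (-0.066 to 0.071), Arc (-0.037 to 0.39), Nptx2 (-0.006 to 0.22) and Vgf (-0.11 to 0.14).

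Replicate numbers showed no clear pairing of the animals, and the labels do not say whether they pair. Same-numbered males had correlations of -0.07 to 0.21 in 6 pairs, 2 of them over 0.1, and 1 was closest to its own number. The saline male deviations also hold the difference between library numbers, which could mask a pairing. With the replicate block no member was called, and Fosb (0.14), Junb (0.001), Egr2 (0.082) and Npas4 (0.26) turned sign. Same-numbered females had a correlation of -0.17. With 2 rats a group, crossed numbers can only give the same size with the opposite sign, so this value says little. The 4 females alone gave 0 members with the block and 7 higher (10.7% of all genes) with the numbers crossed, a pairing added after seeing the data.

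At these depths Atf3, Bdnf and other members near 1 CPM rest on few counts, and 2 females a group limit the tests within females.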
